A study of Mus musculus with 6 samples.

Results

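The immunoglobulin heavy and kappa constant genes are the germline segments that encode the constant part of every antibody heavy chain and of the kappa light chain. They were taken from the count table as the rows whose Ensembl identifier carries one of 9 symbols in the GENCODE M21 mouse annotation: Ighm, Ighd, Ighg3, Ighg1, Ighg2b, Ighg2c, Ighe and Igha for the heavy chain, and Igkc for kappa. All 9 were present among 24906 listed genes, and all 9 passed the filter on low values. The RNA came from the spleens of 6 mice of the C57BL/6J strain, 12 to 16 months old, with 1 library per mouse. Values per library are listed in the order D3TA-1, D3TA-2, D3TA-3 and WT-1, WT-2, WT-3. The D3TA group held 3 mice of a line in which CRISPR/Cas9 introduced T283A, an exchange of threonine 283 for alanine, into Ccnd3, the gene for the cell cycle regulator cyclin D3. Per the series record the allele was maintained in the heterozygous state and the animals have myeloproliferative neoplasm by that age; the labels do not give the zygosity of each mouse. The WT group held 3 age-matched wild-type mice.

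A naive B cell transcribes its rearranged heavy chain variable exon together with the mu and delta constant exons and, by alternative RNA processing, displays IgM and IgD. After activation, class switch recombination deletes DNA downstream of the variable exon and joins it to a gamma, epsilon or alpha constant gene, so the antibody keeps its specificity and takes on another effector function. The spleen holds naive follicular B cells rich in IgD, marginal zone B cells rich in IgM, and plasma cells, whose very abundant secreted immunoglobulin messages carry the same constant exons. Counts per gene do not separate the membrane from the secreted message.

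The 8 heavy chain genes lie on chromosome 12 (GRCm38, minus strand) in the order in which they can be joined. Ighm (ENSMUSG00000076617) spans 113418558 to 113422730 and Ighd (ENSMUSG00000104213) spans 113406604 to 113416324. The gamma genes follow, with Ighg3 (ENSMUSG00000076615) at 113356224 to 113361232, Ighg1 (ENSMUSG00000076614) at 113325240 to 113330523, Ighg2b (ENSMUSG00000076613) at 113302965 to 113307933 and Ighg2c (ENSMUSG00000076612) at 113285325 to 113288932. Ighe (ENSMUSG00000087642) at 113269260 to 113273248 and Igha (ENSMUSG00000095079) at 113254830 to 113260236 close the row. Igkc (ENSMUSG00000076609) lies on chromosome 6, plus strand, at 70726435 to 70726966, in an intron of the long noncoding RNA gene Gm30211.

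The gamma genes are close relatives, so their sequences bear on how far reads of the IgG subclasses can be told apart. The first 60 bases of the first constant exon are shown from the GENCODE M21 transcripts (GRCm38, minus strand), with capitals at the 22 positions where the 4 genes are not all alike.
Ighg3 (chr12:113361173-113361232): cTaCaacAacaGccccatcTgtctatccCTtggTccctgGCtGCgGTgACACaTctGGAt
Ighg1 (chr12:113330464-113330523): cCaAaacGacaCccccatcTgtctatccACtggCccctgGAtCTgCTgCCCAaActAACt
Ighg2b (chr12:113307874-113307933): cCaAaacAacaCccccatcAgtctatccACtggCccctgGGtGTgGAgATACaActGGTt
Ighg2c (chr12:113288873-113288932): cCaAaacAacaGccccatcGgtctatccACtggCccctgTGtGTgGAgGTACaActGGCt
The hinge exon, which joins the antigen-binding arms to the Fc stem, differs in length as well as in sequence between the subclasses (39 to 66 bases, no capitals).
Ighg3 (chr12:113360529-113360576): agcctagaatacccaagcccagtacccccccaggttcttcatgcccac
Ighg1 (chr12:113329844-113329882): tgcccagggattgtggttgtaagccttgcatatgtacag
Ighg2b (chr12:113307261-113307326): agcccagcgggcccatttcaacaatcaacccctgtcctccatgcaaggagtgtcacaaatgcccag
Ighg2c (chr12:113288263-113288325): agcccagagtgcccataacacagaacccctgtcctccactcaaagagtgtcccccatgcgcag

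The secreted form of each gene was taken as its shortest annotated transcript. Across the secreted-form coding sequence, the 6 pairs of gamma genes were 73.9% to 85.6% identical, with Ighg2b and Ighg2c the closest pair. That pair shared an exact run of 78 bases, the longest of any pair. All other pairs of heavy constant genes were at most 50.4% identical. Of the 50-base stretches in the annotated transcripts, 5.49% of those of Ighg2c, 4.15% of Ighg2b, 1.58% of Ighg3 and 0.393% of Ighg1 also occurred in another gamma gene. None of the 50-base stretches of Ighm, Ighd, Ighe, Igha or Igkc occurred in a transcript of another gene, and no 100-base stretch of any of the 9 did. The read length is not given in the sources used here, so a part of the reads of the gamma genes may be shared between them.

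The libraries held 14944622 to 19456838 reads assigned to genes. Values below are normalized counts, that is reads divided by a size factor per library. Hemoglobin genes took 1.91% to 6.75% of reads in D3TA and 1.40% to 6.57% in WT, with D3TA-1, D3TA-2 and WT-3 above 5%. Y-linked genes were expressed in D3TA-3 and WT-1. WT-2 stood apart with 8449 genes at 0, against 3193 to 5170 in the others. The 7 B cell markers (among them Ms4a1, Cd79a, Cd79b, Cd22, Pax5 and Ebf1) all had lower log2 values in D3TA, 5 of them without overlap, and summed to between 10061 and 33430 in D3TA and between 54356 and 63412 in WT. The 6 plasma cell markers (Sdc1, Jchain, Xbp1, Prdm1, Tnfrsf17 and Mzb1) had lower log2 values in 5 of 6 cases, 2 without overlap (Jchain and Tnfrsf17). They summed to between 30414 and 73717 in D3TA and between 86818 and 97960 in WT. Most of each sum was Jchain, at 23773 to 56367 in D3TA and 68583 to 84077 in WT. Sdc1, Xbp1, Prdm1 and Mzb1 overlapped between the groups. The 7 neutrophil markers were higher in D3TA without overlap, at summed counts of 77343 to 415794 in D3TA and 11271 to 26918 in WT. T cell markers summed to 2501 to 9637 in D3TA and 7849 to 10907 in WT, and the 6 erythroid markers had higher log2 values in D3TA, all with overlap. No B or plasma cell marker was at 0 in any library. Of all genes tested, 45.5% had a log2 difference below 0, and 6.84% were lower and 8.18% higher in D3TA without overlap.

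The constant genes did not move as a block in D3TA spleens. Ighd and Ighg3 had the lowest levels relative to WT, Ighm, Ighg2c and Igkc were lower with overlapping groups, Ighg1 lay near 0, and Ighg2b, Igha and Ighe were higher with overlapping groups. None of the 9 passed limma's test at a Benjamini-Hochberg adjusted p under 0.05 over all genes, where 0 of 15564 genes (0%) passed and 1542 (9.91%) had an unadjusted p under 0.05. In edgeR's quasi-likelihood test, too, 0 of 15564 genes passed. The log2 difference was below 0 for 6 of the 9, against 45.5% of all genes, and the median was -0.50, against 0.06 over all genes tested. At an unadjusted p under 0.05 in limma, 2 of the 9 (22.2%) were lower in D3TA, against 3.83% of all genes, and 0 were higher, against 6.08%. The D3TA and WT values did not overlap for 1 of the 9 (11.1%), with D3TA lower, against 6.84% of all genes, and for 0 with D3TA higher, against 8.18%, so 1 gene of 9 is near the background.

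**Figure D1:**
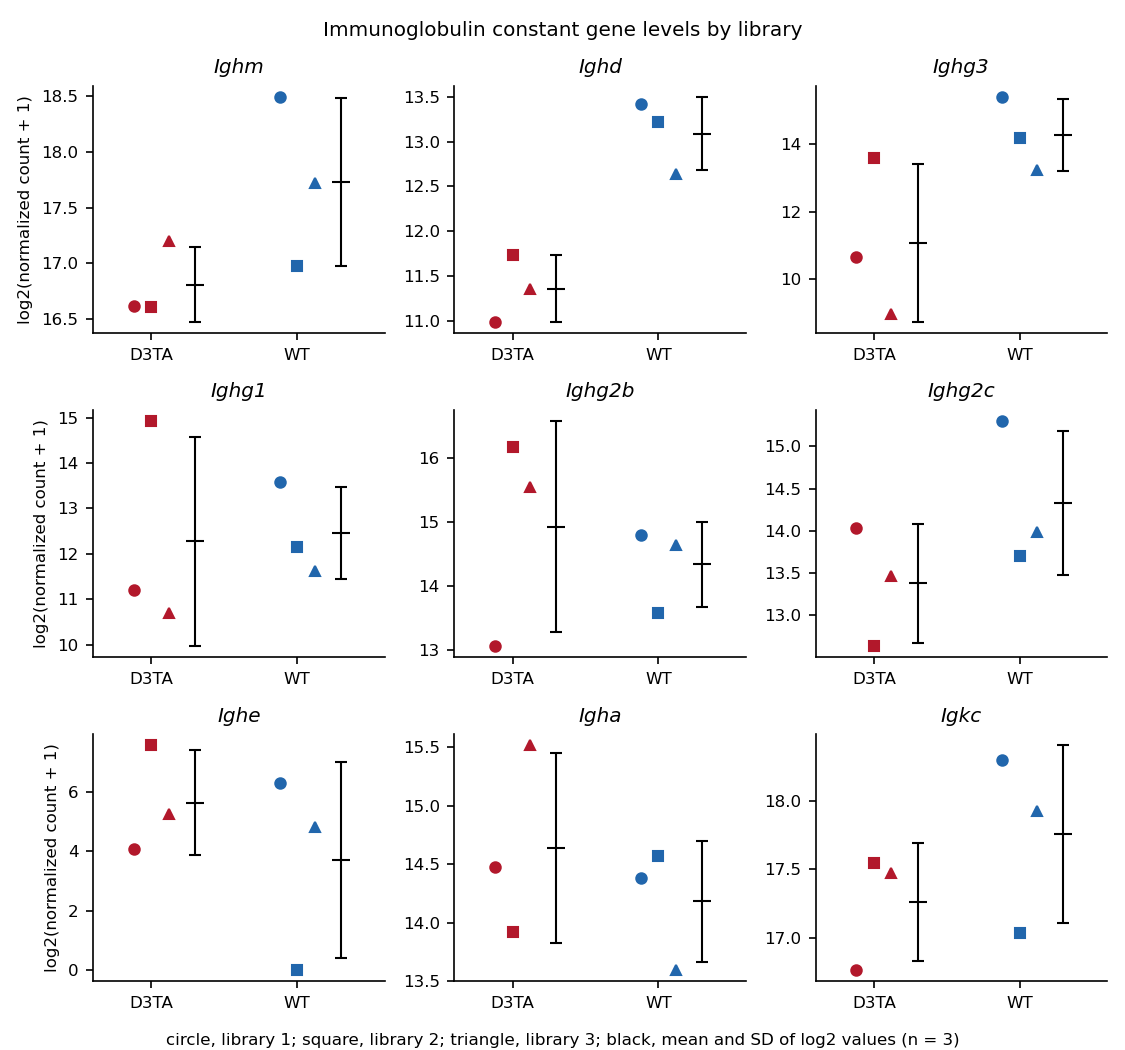
Levels of the 9 constant genes as log2(normalized count + 1) in each library, with D3TA in red and WT in blue; black marks are the mean and SD of the log2 values (n = 3 each), and each panel has its own axis. Only in the Ighd panel do all 3 D3TA libraries lie below all 3 WT libraries.

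Together, the 9 genes took 1.598%, 2.60% and 2.93% of reads across the D3TA libraries 1 to 3. They took 5.34%, 2.07% and 2.87% of reads across the WT libraries 1 to 3. The groups overlapped: WT-1 was the highest library, and D3TA-3 lay above both other WT libraries. The difference of the means was -1.05 percentage points, and it was -0.09 without WT-1. In bulk spleen RNA, fewer cells of a type and less RNA per cell cannot be told apart, and this holds for every difference below.

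Ighm, which encodes the mu chain of IgM, was at 100746, 100100 and 150541 normalized counts across the D3TA libraries 1 to 3. It was at 368667, 129329 and 216788 across the WT libraries 1 to 3. D3TA-1 and D3TA-2 lay below every WT library, while D3TA-3 lay above WT-2. In limma, the log2 difference of Ighm was -0.92 ± 0.44 (SE; adjusted p 0.533), and it was -0.54 without WT-1.

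Ighd, which encodes the delta chain of the IgD receptor found on mature naive B cells, was at 2024, 3398 and 2627 normalized counts across the D3TA libraries 1 to 3. It was at 10945, 9509 and 6356 across the WT libraries 1 to 3. The highest D3TA library was thus well below the lowest WT library, and Ighd was the member whose groups did not overlap. In limma Ighd ranked 40 of 15564 genes by p, and its log2 difference was -1.73 ± 0.33 (SE; adjusted p 0.112). The adjusted p of Ighd was under 0.05 in 3 settings, and in each of them other genes were called too. It was 0.0357 in limma without the filter on low values, where 44 of 24906 genes were called. In limma without D3TA-3 it was 0.0401, with 306 of 15564 genes called. With DESeq2 on recovered reads it was 0.000590, where 2.54% of all genes were called. Under the other settings it ranged up to 0.599. Relative to the summed B cell markers, a ratio chosen after the values were seen, Ighd stood at 20.1%, 10.2% and 9.93% across the D3TA libraries 1 to 3. In WT-1 to WT-3 the ratio was 17.3%, 15.5% and 11.7%. These ranges overlapped, and D3TA-1, the library lowest in Ighd, had the highest ratio. Ighm per B cell marker count was 10.01, 2.99 and 5.69 in D3TA and 5.81, 2.10 and 3.99 in WT, also with overlap. Ighd reads as a percentage of Ighm reads were 2.01, 3.39 and 1.74 in D3TA and 2.97, 7.35 and 2.93 in WT, where WT-2 stood highest and D3TA-2 lay above WT-1 and WT-3.

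Among the gamma genes, Ighg3 encodes the IgG3 subclass, in mice typical of responses to polysaccharide antigens. It was at 1612, 12284 and 497 normalized counts across the D3TA libraries 1 to 3. It was at 42904, 18461 and 9726 across the WT libraries 1 to 3. D3TA-2 lay above WT-3, and the D3TA libraries themselves spread over more than an order of magnitude. In limma the log2 difference of Ighg3 was -3.20 ± 0.96 (SE; adjusted p 0.319), and it was -4.46 without D3TA-2, -2.15 without D3TA-3 and -2.30 with DESeq2.

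Ighg1, the gene for IgG1, was at 2372, 31068 and 1646 across the D3TA libraries 1 to 3. It was at 12324, 4572 and 3169 across the WT libraries 1 to 3. D3TA-2 was the highest of the 6 libraries, and the other D3TA libraries were the lowest of the 6. The log2 difference was -0.19 ± 0.94 (SE, adjusted p 0.963 in limma), while the mean of the normalized counts was higher in D3TA, at 11695 ± 16781, against 6688 ± 4931 in WT (SD of 3 libraries). Ighg1 had no stable direction: the limma log2 difference was 0.34 without D3TA-1, -1.51 without D3TA-2, 0.61 without D3TA-3 and 0.38 without WT-1, and edgeR and DESeq2 gave 0.80 and 0.81.

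Ighg2b, the gene for IgG2b, was at 8564, 73455 and 47976 across the D3TA libraries 1 to 3. It was at 28387, 12269 and 25626 across the WT libraries 1 to 3. D3TA-2 and D3TA-3 lay above every WT library, and D3TA-1 lay below every WT library. D3TA minus WT was 0.59 ± 0.70 on the log2 scale (SE, adjusted p 0.815 in limma), and it was -0.03 without D3TA-2, 0.27 without D3TA-3, 0.21 without WT-2 and 1.52 without D3TA-1.

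Ighg2c, the gene for the IgG2 subclass that C57BL/6 mice carry in place of IgG2a, was at 16797, 6360 and 11295 across the D3TA libraries 1 to 3. It was at 40266, 13357 and 16255 across the WT libraries 1 to 3. The order of the D3TA libraries was the reverse of that seen for Ighg2b, with D3TA-1 highest and D3TA-2 lowest. D3TA minus WT was -0.95 ± 0.48 on the log2 scale (SE, adjusted p 0.561 in limma), and it was -0.47 without WT-1 and -0.58 without D3TA-2. The ratio of Ighg2b to Ighg2c reads was 0.510, 11.5 and 4.25 in the D3TA libraries and 0.705, 0.919 and 1.58 across the WT libraries 1 to 3, so this ratio spread more among the D3TA libraries than among the WT libraries. Because this pair shares the most sequence, a part of each count may belong to the other gene.

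Ighe, which encodes the epsilon chain of IgE, was the lowest of the 9 in each library. It had 15, 187 and 43 reads across the D3TA libraries 1 to 3. It had 82, 0 and 28 reads across the WT libraries 1 to 3. With 0 reads in WT-2, a level of up to 3.36 normalized counts (3 reads) is allowed there, by counting error alone. WT-2 also had the most genes at 0 of the 6 libraries, which this limit does not cover. The log2 difference was 1.93 ± 1.48 (SE, adjusted p 0.704 in limma) and it was 0.08 without WT-2, 0.97 without D3TA-2 and 3.23 without WT-1.

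Igha, which encodes the alpha chain of IgA, the main antibody of mucosal secretions, was at 22728, 15492 and 46792 normalized counts across the D3TA libraries 1 to 3. It was at 21317, 24313 and 12377 across the WT libraries 1 to 3. D3TA-3 was highest, and D3TA-1 and D3TA-2 lay within the WT range. The log2 difference was 0.45 ± 0.45 (SE, adjusted p 0.770 in limma), and it was 0.01 without D3TA-3, 0.16 without WT-3 and 0.81 without D3TA-2.

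**Figure D2:**
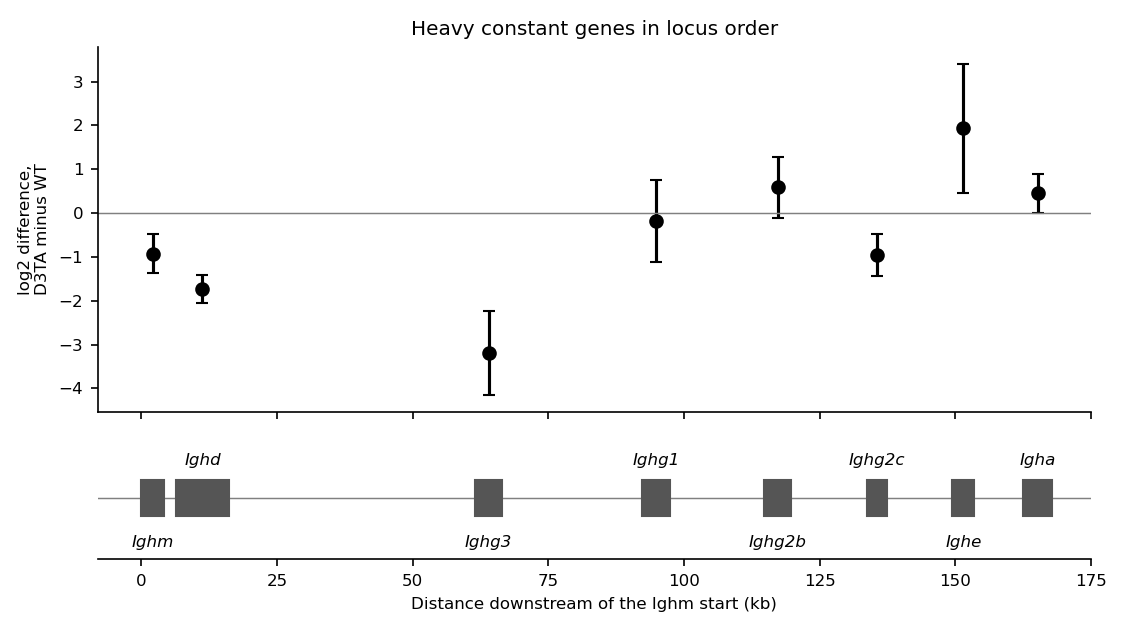
The upper panel plots the log2 difference, D3TA minus WT, with its moderated standard error (n = 3 against 3) for each heavy constant gene, and the lower panel maps the genes by their distance in kilobases from the Ighm start. Differences of -0.92, -1.73 and -3.20 stand at the first 3 genes, Ighm, Ighd and Ighg3, and the 5 genes further along lie on both sides of 0.

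The share of each isotype within a library does not depend on how the library was scaled. Ighm took 65.1%, 41.3% and 57.6% of heavy constant reads across the D3TA libraries 1 to 3. It took 70.2%, 61.1% and 74.7% across the WT libraries 1 to 3. As means and SD of 3 libraries each, this was 54.6 ± 12.1% in D3TA and 68.7 ± 6.94% in WT, with overlap between D3TA-1 and WT-2. The Ighd share was 1.31%, 1.40% and 1.0% in the D3TA libraries and 2.09%, 4.49% and 2.19% across the WT libraries 1 to 3. It was the isotype share whose groups did not overlap, with an exact 2-sided permutation p of 0.1, the smallest that 3 against 3 allows. Counting error was small beside these differences: the 95% exact binomial (Clopper-Pearson) interval was at most 0.246 percentage points to either side for any share, and it covers counting error only.

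The Ighg3 share was 1.04%, 5.07% and 0.190% in the D3TA libraries and 8.17%, 8.72% and 3.35% across the WT libraries 1 to 3. The Ighg1 share was 1.53%, 12.8% and 0.630% in D3TA and 2.35%, 2.16% and 1.09% in WT. The Ighg2b share was 5.53%, 30.3% and 18.4% in D3TA and 5.41%, 5.79% and 8.83% in WT. D3TA-2 thus carried the highest share of both Ighg1 and Ighg2b. The Ighg2c share was 10.8%, 2.62% and 4.32% in D3TA and 7.67%, 6.31% and 5.60% in WT. The Igha share was 14.7%, 6.39% and 17.9% in D3TA and 4.06%, 11.5% and 4.26% in WT. Ighe made up at most 0.0779% in any library. D3TA-1 and D3TA-3 were the libraries with the largest Igha shares, and D3TA-2 lay within the WT range. In exact 2-sided permutation tests of the 8 shares, p was between 0.1 and 0.9 and the adjusted p between 0.400 and 0.900, in a design that cannot go below 0.1.

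Summed over the 6 genes reached by class switching, the share of heavy constant reads was 33.6%, 57.3% and 41.4% across the D3TA libraries 1 to 3. It was 27.7%, 34.5% and 23.1% across the WT libraries 1 to 3. D3TA-1 lay just below WT-2, so the groups overlapped in that pair. D3TA averaged 44.1 ± 12.1% and WT 28.4 ± 5.69% (SD, n = 3 each; no test, as this sums over members), and the difference of 15.7 percentage points became 9.10 without D3TA-2. The gamma genes alone took 18.9%, 50.8% and 23.5% in D3TA and 23.6%, 23.0% and 18.9% in WT, a range in WT that held D3TA-1 and D3TA-3. Shares within the gamma reads were not planned beforehand and were not tested. Within the gamma reads, Ighg3 made up 5.49%, 9.97% and 0.809% in D3TA and 34.6%, 37.9% and 17.8% in WT, without overlap. Within the same reads Ighg2b made up 29.2%, 59.6% and 78.1% in D3TA and 22.9%, 25.2% and 46.8% in WT, with overlap. Of the D3TA libraries, D3TA-1 was led by Ighg2c and the other 2 by Ighg2b.

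**Figure D3:**
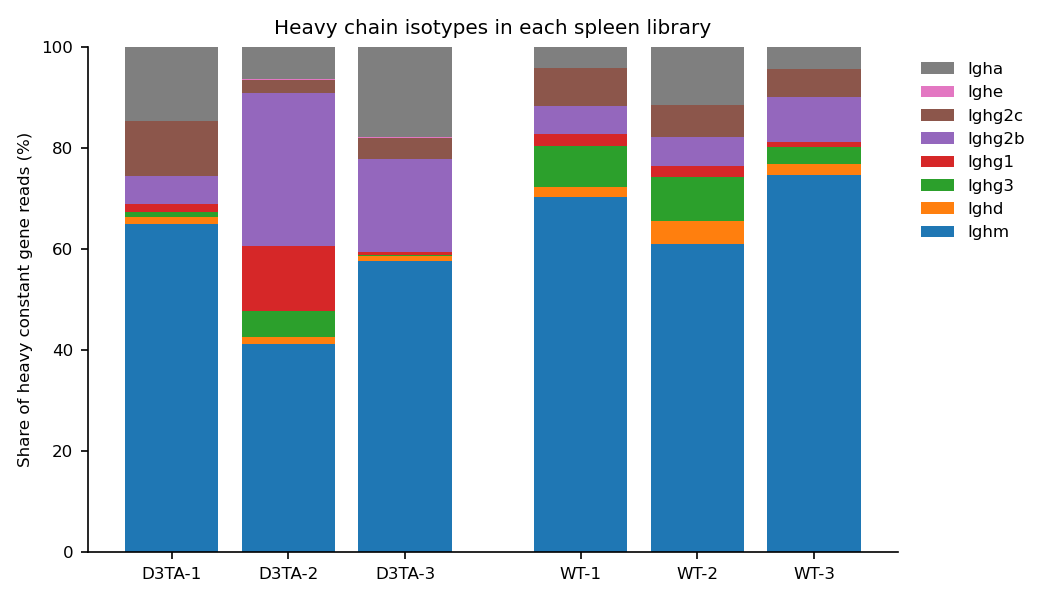
Each bar splits the heavy constant gene reads of 1 library into the 8 isotypes, in percent. The Ighm part is smallest in D3TA-2 (41.3%), where Ighg2b reaches 30.3%, and the Ighd band is thinner in the 3 D3TA bars (1.0% to 1.40%) than in the 3 WT bars (2.09% to 4.49%).

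Levels can be ordered between genes only per length. As normalized counts per kilobase of the secreted-form transcript, the order of the means in D3TA was Igkc, Ighm, Ighg2b, Igha, Ighg1, Ighg2c, Ighg3, Ighd and Ighe. In WT it was Igkc, Ighm, Ighg3, Ighg2c, Ighg2b, Igha, Ighd, Ighg1 and Ighe. Igkc averaged 303347 in D3TA and 442913 in WT on this scale, and Ighm averaged 78452 in D3TA and 159585 in WT. On this scale, the neighbours in D3TA from Ighg2b down to Ighd changed places in at least 1 of the 3 libraries. In WT those from Ighg3 to Igha did. On the same scale these neighbours thus do not differ beyond the spread between mice. The other neighbours kept their order in 3 of 3 libraries, most narrowly in D3TA-2, with 67046 for Ighm and 65938 for Ighg2b. The order depends on the length used, and the secreted-form length was not planned beforehand. With all annotated exons of a gene merged as its length, Ighg2c lay above Ighg3 in every WT library. The shares of heavy constant reads per kilobase were then 11.2%, 9.46% and 8.18% for Ighg2c and 6.28%, 6.90% and 2.58% for Ighg3. In D3TA, the mean share of Ighg2c (8.96%) then lay above that of Ighg1 (4.18%).

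Igkc, the constant segment of the kappa light chain that most mouse antibodies use, was at 111148, 190953 and 182040 normalized counts across the D3TA libraries 1 to 3. It was at 323030, 134299 and 249561 across the WT libraries 1 to 3. WT-2 lay below D3TA-2 and D3TA-3. The log2 difference was -0.50 ± 0.43 (SE, adjusted p 0.737 in limma), and it was -0.22 without WT-1, -0.25 without D3TA-1 and -0.86 without WT-2. Igkc reads per heavy constant read were 0.718, 0.788 and 0.696 in D3TA and 0.615, 0.634 and 0.860 in WT, with overlapping groups. Igkc per plasma cell marker count was 3.65, 2.59 and 2.64 in D3TA and 3.36, 1.37 and 2.87 in WT, with overlapping groups as well. That marker sum is mostly Jchain. Gm30211, in an intron of which Igkc lies on the same strand, had 68.5 to 174.6 normalized counts in D3TA and 202.6 to 374 in WT.

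The lambda constant genes, which encode the alternative light chain, were all 4 lower in D3TA (median log2 difference -1.27), against 45.5% of all genes below 0. At an unadjusted p under 0.05 in limma, 3 of the 4 were lower, against 3.83% of all genes, and 0 passed at an adjusted p under 0.05. Iglc3 was at 677, 1867 and 1426 in the D3TA libraries and at 2857, 2808 and 2818 across the WT libraries 1 to 3, a log2 difference of -1.22 ± 0.37 (SE, adjusted p 0.330 in limma). Iglc2 was at 2029, 5659 and 3892 in D3TA and at 8745, 6338 and 12467 in WT (log2 difference -1.32 ± 0.41, SE). The D3TA and WT values did not overlap for either, and Iglc2 and Iglc3 are near copies that can share reads. Igkc reads per lambda constant read were 30.0, 13.8 and 21.4 in D3TA and 18.4, 9.02 and 7.70 in WT, where D3TA-2 lay below WT-1. Variable segment reads, summed over the heavy and both light chain loci, were 6.23%, 10.9% and 13.9% of the reads of the 9 constant genes in D3TA and 17.3%, 12.1% and 19.7% in WT.

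The genes whose profile over the 6 libraries was most like that of each constant gene were taken by the smallest root mean square difference of centred log2 values. For Igkc, the closest of all tested genes outside the 9 was Sdc1, which encodes the plasma cell surface proteoglycan CD138, at 0.111 on the log2 scale. Sdc1 stood at 366, 621 and 737 in the D3TA libraries and at 1095, 445 and 818 across the WT libraries 1 to 3, so it shared the low values of D3TA-1 and WT-2. Ttc38 followed at 0.119 and Cisd3 at 0.157. For Ighd the closest gene was Sbk1, a serine/threonine kinase gene, at 0.129, with 378, 542 and 556 in D3TA and 2035, 1723 and 1290 in WT. Cacna1i, a calcium channel gene, came next at 0.212, after a row whose identifier the annotation does not hold. For Ighm the closest were Adam23 at 0.197, Epb41l4b at 0.211 and 1810034E14Rik at 0.223. For Igha they were Vsig10l at 0.161, Asap3 at 0.178 and Acvr1 at 0.183, each highest in D3TA-3.

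Other switched genes had looser matches. For Ighg2c the closest gene was Smad6, an inhibitor of BMP signalling, at 0.201, followed by Tppp3 and Rbm19 at 0.410 and 0.412. For Ighg2b they were Gm32687 at 0.351, Sytl2 at 0.409 and Gm16170 at 0.431. For Ighe they were Mir5107 at 0.506, Gm16638 at 0.644 and Chrnb1 at 0.738, all at 0 in WT-2. For Ighg3 they were the heavy variable segments Ighv1-11 at 0.655 and Ighv13-2 at 0.771 and the pseudogene Ccl19-ps3 at 0.798. For Ighg1 they were Rpl39l at 0.688, Guca2b at 0.829 and Itih4 at 0.854. With 6 libraries and 15564 genes, close profiles also arise among unrelated genes, and the distances are given as a description.

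**Figure D4:**
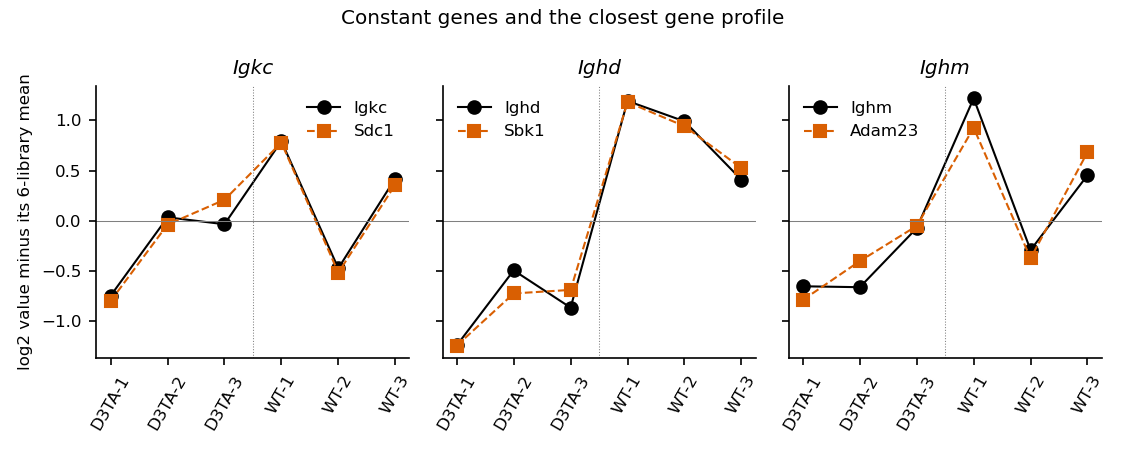
Log2 values of Igkc, Ighd and Ighm (black) and of the tested gene with the closest profile (orange), each minus its own mean over the 6 libraries; D3TA libraries stand left of the dotted line and lines only join the points of 1 gene. Igkc and Sdc1 are both low in D3TA-1 and WT-2, whereas Ighd and Sbk1 separate the 3 D3TA from the 3 WT libraries.

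Genes that act with the constant genes were grouped in 7 lists, and none of their 82 tested members passed limma's adjusted threshold. Over all genes tested, 45.5% had a log2 difference below 0, 3.83% were lower and 6.08% higher at an unadjusted p under 0.05 in limma, and 6.84% were lower and 8.18% higher without overlap. All 12 partners of the B cell receptor had a log2 difference below 0 (median -0.73), 5 of the 12 at an unadjusted p under 0.05 and 5 without overlap. Cd79a, a signalling chain that carries surface immunoglobulin, was at 2766, 7523 and 6767 in the D3TA libraries and at 22915, 19746 and 17043 across the WT libraries 1 to 3. For Cd79a the log2 difference was -1.92 ± 0.40 (SE, adjusted p 0.163 in limma), and that of its partner Cd79b was -1.80 ± 0.46 (SE, adjusted p 0.246 in limma). The log2 differences of Cd79a and Cd79b and that of Ighd, -1.73, thus lay within their standard errors of each other.

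Of 5 genes of heavy chain transcript processing, 4 lay above 0 and 0 had an unadjusted p under 0.05. Zfp318, needed in mice for IgD expression from the long mu-delta transcript, was at 231, 487 and 290 in D3TA and at 736, 843 and 339 in WT, with overlap and a log2 difference of -0.89 ± 0.42 (SE, adjusted p 0.527 in limma). Hnrnpll, an RNA-binding splicing regulator of lymphocytes, was higher without overlap, at 1407, 798 and 608 in D3TA and 510, 567 and 539 in WT (log2 difference 0.71 ± 0.34, SE, adjusted p 0.539 in limma). Of 17 class switch recombination genes, 10 lay above 0 (median 0.08, near the 0.06 of all genes). At an unadjusted p under 0.05, 1 of the 17 was higher, which is near the 6.08% of all genes and no result about the list. Exo1, a DNA exonuclease, was that gene, at 456, 230 and 220 in D3TA and 117, 197 and 125 in WT (log2 difference 0.99 ± 0.41, SE, adjusted p 0.459 in limma). Rif1, a factor that guards DNA ends, followed with 0.68 ± 0.31 (SE, adjusted p 0.513 in limma).

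Of 18 genes of isotype-steering signals, 13 lay below 0, against 45.5% of all genes (median -0.25), and 2 were lower at an unadjusted p under 0.05, against 3.83% of all genes. They were Tnfrsf13b, the TACI receptor for BAFF and APRIL, with a log2 difference of -1.32 ± 0.32 (SE, adjusted p 0.232 in limma), and Il4ra, the interleukin-4 receptor chain, with -0.69 ± 0.29 (SE, adjusted p 0.467 in limma). Of 14 antibody secretion genes, 10 lay below 0 (median -0.26) and 2 were lower at an unadjusted p under 0.05, against the same 45.5% and 3.83%. Jchain, which joins the units of IgM and IgA polymers, was at 23773, 56367 and 49998 in D3TA and at 78102, 84077 and 68583 in WT, without overlap (log2 difference -0.92 ± 0.39, SE, adjusted p 0.479 in limma). Tnfrsf17, the plasma cell receptor BCMA, was at 32.1, 51.5 and 62.2 in D3TA and at 122, 74.98 and 142 in WT (adjusted p 0.458 in limma). Of the heavy chain genes for the IgM and IgA that Jchain joins, Ighm had a log2 difference of -0.92 and Igha one of 0.45.

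The 12 immunoglobulin receptor genes split evenly by sign, with 6 below and 6 above 0. At an unadjusted p under 0.05 in limma, 3 were lower, against 3.83% of all genes, and 1 was higher, against 6.08%. Without overlap, 2 were lower, against 6.84% of all genes, and 3 were higher, against 8.18%. Fcer2a encodes CD23, a receptor on B cells that binds IgE with low affinity, and stood at 212, 615 and 502 in D3TA and 2869, 2141 and 1289 in WT, with a log2 difference of -2.30 ± 0.44 (SE, adjusted p 0.117 in limma). Fcgr4, a myeloid receptor for IgG2 subclasses, was higher without overlap, at 1357, 793 and 2001 in D3TA and 469, 294 and 603 in WT (log2 difference 1.56 ± 0.40, SE, adjusted p 0.246 in limma). The B cell marker sum was lower and the neutrophil marker sum higher in D3TA, as given above, and their part in the differences was not tested. Both Fcgr4 and the neutrophil sum were higher in every D3TA library than in every WT library. Within D3TA, Fcgr4 was highest (2001) in D3TA-3, where the neutrophil sum was lowest (77343), and how the 2 relate was not tested.

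**Figure D5:**
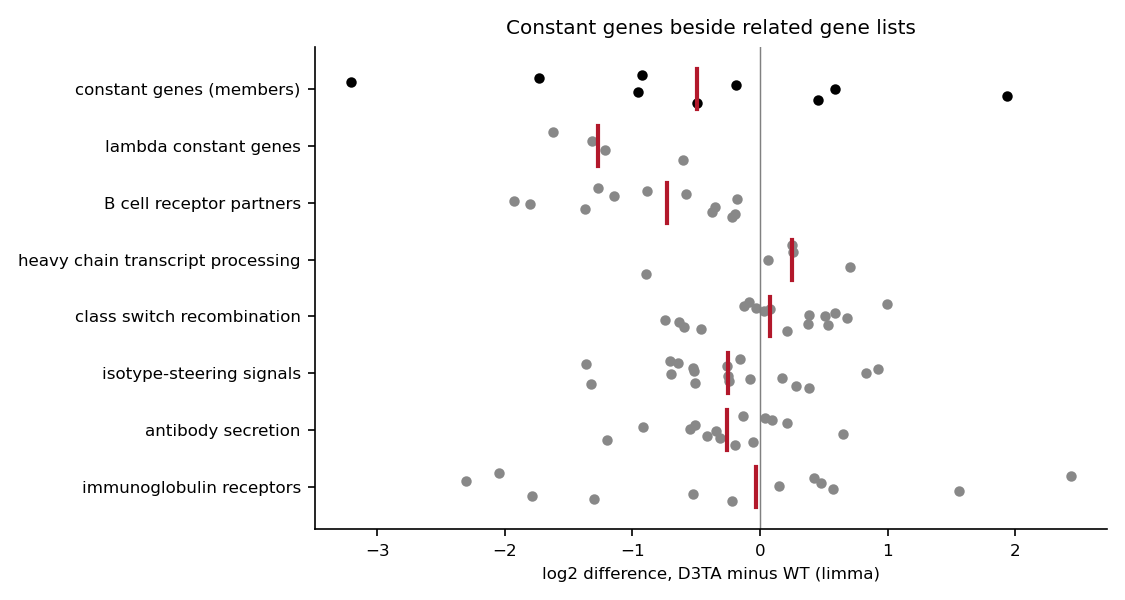
Each point is the limma log2 difference, D3TA minus WT, of 1 gene, and red bars are list medians; the constant genes are in black and the 7 related lists in grey. All 4 lambda constant genes and all 12 B cell receptor partners lie left of 0, while the constant genes spread from -3.20 to 1.93.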

How the data were processed

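Messenger RNA of spleen cells from 3 D3TA and 3 WT mice was selected by its poly-A tail and reverse transcribed from random primers, per the labels' protocols, which describe no strand-marking step. The build was mm10 and the tools were HISAT2, DESeq2, CASAVA, Trim Galore and FastQC, per the submitters' processing notes; the counting program is not given in the sources used here. The deposited table holds a signal rather than raw counts: by its values, the authors had divided read counts by a size factor per library, since 100% of 149436 values were whole multiples (within 0.001) of a step per library. Symbols came from GENCODE M21 (24860 of 24906 identifiers). Whether the mice were litter-mates or handled in batches is not given, so p-values measure the spread between these mice.

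The 15564 genes that reached 10 or more in 3 or more libraries were fitted as log2(value + 1) with limma 3.58.1 (trend, robust), 2-sided, with Benjamini-Hochberg adjustment over all of them at 0.05; this scale understates the change of low genes. The test was checked on simulated counts whose spread between libraries was set and not estimated from these data. The check therefore need not hold at the spread of the constant genes. Isotype shares were compared by exact permutation (scipy 1.17.1). Named genes were the 9 members, the 2 genes with the smallest p of each list and the 3 closest profiles per member. Ratios between genes or to marker sums, shares within the gamma reads and the variable segment percentage were not planned beforehand. Values of some single genes are not reported here. The members and lists were chosen with earlier results of these data known. Alternatives were other scalings, filters and pseudocounts, left-out libraries, a replicate block, terms for Y-linked reads and hemoglobin, and limma-voom, edgeR 4.0.16 and DESeq2 1.42.0 on recovered reads. The step of D3TA-2 lies near 1 (1.01), so an automatic test of whole multiples does not judge that library; its recovered reads were used in the alternatives only and for the read numbers given.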

Additional observations from a re-analysis of the deposited data

How the results depend on the processing

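The count of 0 genes called over the transcriptome became 44 with no filter on low values, 15 with Y-linked reads (yes or no) as a term, 11 with a term for libraries with over 5% hemoglobin and 472 with DESeq2, and ranged from 0 to 306 when 1 library was left out (306 without D3TA-3). Over 21 alternative fits, 7 of the 9 constant genes kept their direction. Ighg1 turned to 0.19 without both D3TA-1 and WT-2, 0.80 with edgeR and 0.81 with DESeq2, and ranged from -1.51 to 0.61 when 1 library was left out. Ighg2b ranged from -0.03 to 1.52 in the same way (-0.033 without D3TA-2). The difference in share ranged from -0.79 to 5.31 percentage points for Ighg1 and from -3.05 to 1.06 for Ighg2c when 1 library was left out; the cause was not tested. The switched share stayed between 9.10 and 20.9 points higher in D3TA when 1 library was left out, and was 16.7 points higher per kilobase of secreted-form transcript, an alternative added after the data were seen. With the replicate number as a block, 0 genes were called (1475 at an unadjusted p under 0.05) and no call changed. The block moved the SE of members both ways, from 0.96 to 0.71 for Ighg3 and from 0.33 to 0.34 for Ighd. Deviations of same-numbered libraries correlated at -0.06, -0.0046 and -0.13. With 3 libraries per group, this cannot decide whether the numbers pair the mice. Ighe, with 0 to 187 reads, is the member with the fewest reads. Its 0 fell in WT-2, which had 8449 genes at 0 with 14944622 reads. D3TA-1 had 4093 genes at 0 with 15545775 reads, and the cause of the 0 was not tested.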
